A study of Homo sapiens with 8 samples.

Results

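Kinesin motors, centromere proteins and the kinases, cyclins and checkpoint proteins of mitosis were compared between spheroids of a cisplatin-resistant ovarian carcinoma line and of its parent. The genes were taken by symbol from the probesets named by 1 gene: every symbol that begins with KIF and a digit or C, every symbol made of CENP and letters, and 24 named mitotic genes, from AURKA to PRC1. This gave 84 genes on 89 probesets, of 18417 genes named on the arrays. CENPA, CENPS and KIF4B stood only on probesets of several genes and were left out. KIF25-AS1, an antisense RNA gene, met the symbol rule although it encodes no motor, and it was kept. The parental group was OVCAR-8, a human ovarian adenocarcinoma line not exposed to the drug (4 arrays). The resistant group was OVCAR-8R, called OVCAR-8C in the sample labels, which was derived from OVCAR-8 by stepwise continuous exposure to cisplatin up to 5 μM (4 arrays) and stayed resistant after the drug was withdrawn. Both lines were grown in serum-containing medium and assembled in agarose molds into spheroids of about 300 μm. There is 1 resistant line, so resistance and any other property that this line gained in culture cannot be told apart.

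In a dividing cell, CDK1 bound to cyclin A or B starts mitosis after CDC25 phosphatases remove its inhibitory phosphates. Centromeric chromatin carries the constitutive centromere network, on which the outer kinetochore is built, and its NDC80 complex grips microtubules. The spindle checkpoint, with MAD2L1, BUB1B, BUB3, BUB1 and TTK, holds back CDC20 until every kinetochore is attached. Mitotic kinesins slide, shorten and bundle spindle microtubules, while other kinesins carry vesicles and organelles in cells at every stage. The transcripts of many mitotic genes rise in G2 and mitosis.

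Of the 84 genes, 18 were lower in OVCAR-8R spheroids, 3 were higher and 63 were not called. A gene was called where the Benjamini-Hochberg adjusted p from limma was under 0.05 over all probesets kept and the lines differed at least 2-fold, that is by 1 on the log2 scale. By this rule 21.4% of the members were lower against 8.37% of the 15931 genes measured, and 3.57% were higher against 8.37%. Without the 2-fold minimum, which is written as at any size, 49 members were lower and 15 higher at an adjusted p under 0.05, against 30.0% of all genes lower and 27.6% higher. In 49 members every OVCAR-8R array lay below every OVCAR-8 array (29.5% of all genes), and in 15 every one lay above (27.3% of all genes). The median log2 difference, OVCAR-8R minus OVCAR-8, was -0.31 over the members and -0.01 over all genes. The 42 centromere and mitotic genes gave 14 lower (33.3%) and none higher of the 2-fold calls, with a median of -0.58. The 42 kinesin-named genes gave 4 lower (9.52%) and 3 higher (7.14%), with a median of -0.11. Those kinesin shares are near the 8.37% each way over all genes. The 5 centromere and mitotic genes that were higher at any size were CDC25B, CDC20, TPX2, CENPT and CENPB. In bulk RNA, fewer cells in G2 and mitosis and less RNA of these genes per cell cannot be told apart. The authors state, without showing the data, that the resistant cells proliferated more slowly than the sensitive cells. The part of this in the differences was not tested.

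**Figure D1:**
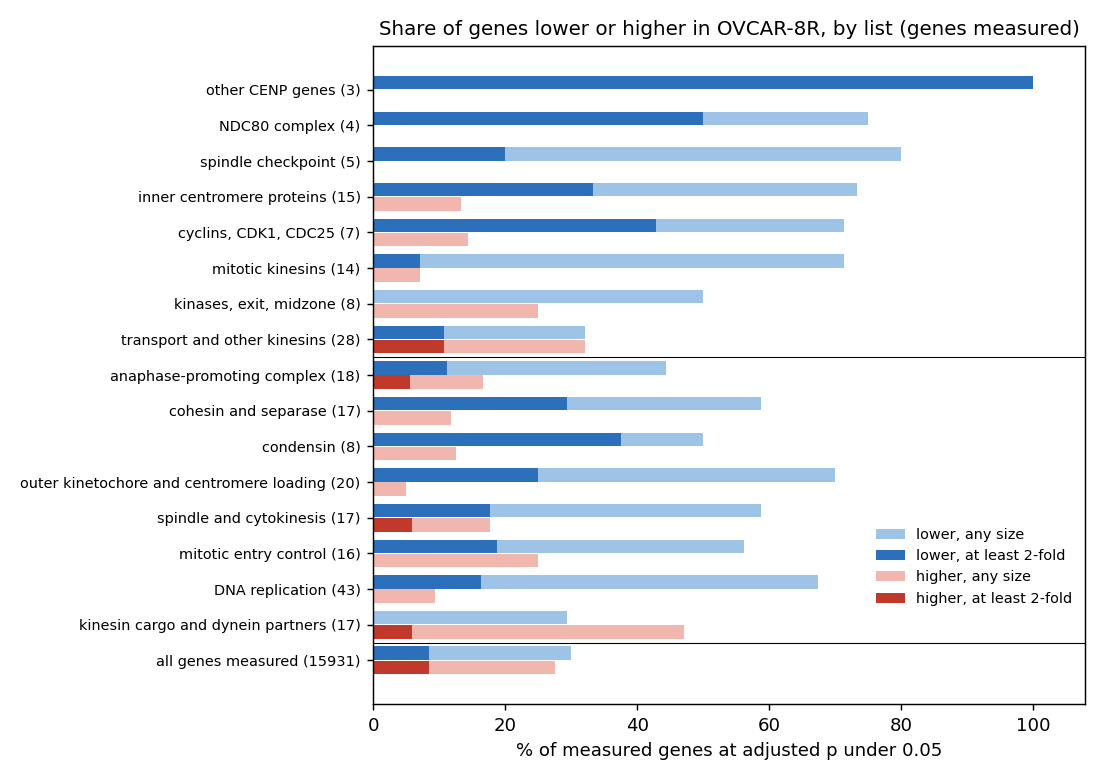
Percent of the measured genes of each list (number measured in brackets) that were lower (blue) or higher (red) in OVCAR-8R at an adjusted p under 0.05, with the dark part at least 2-fold. Lists above the first line hold the members, those below it hold other genes of the pathway, and the bottom bars show all 15931 genes, of which 30.0% were lower and 27.6% higher.

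The arrays had median log2 signals from 6.67 to 6.73. Arrays of one line correlated at r of at least 0.988 over all probesets, and arrays of different lines at no more than 0.946. All 89 member probesets passed the filter on low signal, which left out probesets in the lowest quartile in both lines. Of 10 markers of ovarian carcinoma epithelium, 7 exceeded the median signal of all arrays in at least 1 line (PAX8, WT1, EPCAM, KRT8, KRT18, SOX17 and MECOM), while CDH1, KRT19 and MUC16 did not. PAX8 and EPCAM exceeded it only in OVCAR-8R, and WT1 and MECOM only in OVCAR-8. The mean log2 signal of the 10 markers ranged from 7.72 to 7.90 on the OVCAR-8R arrays and from 7.06 to 7.12 on the OVCAR-8 arrays, but single markers went opposite ways. PAX8, KRT8, EPCAM and KRT18 were higher in OVCAR-8R by 3.77, 2.97, 2.01 and 1.90. MECOM was lower (difference -2.45), and WT1 had a difference of -0.86 with the lines separated. Among markers of other cells, 0 of 5 endothelial and 1 of 5 leukocyte genes (CD68) exceeded that median in at least 1 line. Of 7 fibroblast genes 2 did, COL1A1 in both lines and PDGFRB in OVCAR-8R only. Mean log2 signals in OVCAR-8R and OVCAR-8 ranged from 5.37 to 5.51 and from 5.22 to 5.34 for the endothelial list, from 6.29 to 6.44 and from 5.77 to 5.81 for the leukocyte list, and from 5.88 to 5.97 and from 5.60 to 5.77 for the fibroblast list. Within the leukocyte list CD68 had a difference of 2.52 and CD14 and ITGAM had 0.23 and 0.16, and within the fibroblast list COL1A1 had 2.04, LUM -1.15 and COL1A2 and COL3A1 -0.04 and -0.07. The leukocyte-defining gene PTPRC lay in the lowest quartile in both lines. The part of these differences in the results was not tested.

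Promoters of many mitotic genes carry the cell cycle genes homology region (CHR), a short element through which repressor and activator complexes set their timing. The promoter windows of RefSeq (GRCh38.p14), from 250 bases before the start of a gene to 50 after it, were searched on both strands for TTTGAA and TTCGAA. A window was matched by symbol for 68 of the 84 members. A CHR match stood in 56.2% of 48 members other than the transport kinesins, in 10% of 20 transport and other kinesins and in 16.6% of all 27305 promoters. Among the 48, it stood in 8 of 14 genes that were lower (57.1%) and in 19 of 34 that were not called (55.9%). These shares are counts of letters in the windows and were not tested. CCAAT, searched the same way, stood in 66.7% of the 48 and 35.7% of all promoters, and an E2F word (TTTCCCGC, TTTGGCGC or TTTCGCGC) in 8.33% and 2.79%. Among the 48, CCAAT stood in 8 of the 14 lower genes (57.1%) and 24 of the 34 not called (70.6%). An E2F word stood in 3 (21.4%) and 1 (2.94%) of them, which was not tested either. MKI67, PLK1, CDC20 and BUB1, which were not called, held a CHR match, and CENPV and CDC25A, with the largest falls of the members, held none in these windows. CDC25A held 1 E2F word and 2 CCAAT matches, and CENPV held neither. A window with both CHR and CCAAT was found for 45.8% of the 48 and 6.58% of all promoters. Matches were counted for each motif on its own, whether or not they shared bases.

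The windows of the 6 lower members with the largest falls among those with a CHR match are given 5′ to 3′ on the strand of the gene, with the match in capitals. The match began 17 bases after the start in CENPW, 40 in CENPF, 16 in NUF2, 3 in CENPN and 24 in MAD2L1, and 35 bases before it in KIF15, where it is on the opposite strand.
CENPW promoter (GRCh38.p14, chr6:126339865-126340164, plus strand): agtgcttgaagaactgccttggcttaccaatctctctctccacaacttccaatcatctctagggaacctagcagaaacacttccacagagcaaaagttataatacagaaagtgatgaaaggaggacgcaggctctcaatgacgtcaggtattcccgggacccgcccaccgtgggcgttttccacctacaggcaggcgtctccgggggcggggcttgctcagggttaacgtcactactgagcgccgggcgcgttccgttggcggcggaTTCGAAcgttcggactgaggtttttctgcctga
CENPF promoter (GRCh38.p14, chr1:214602945-214603244, plus strand): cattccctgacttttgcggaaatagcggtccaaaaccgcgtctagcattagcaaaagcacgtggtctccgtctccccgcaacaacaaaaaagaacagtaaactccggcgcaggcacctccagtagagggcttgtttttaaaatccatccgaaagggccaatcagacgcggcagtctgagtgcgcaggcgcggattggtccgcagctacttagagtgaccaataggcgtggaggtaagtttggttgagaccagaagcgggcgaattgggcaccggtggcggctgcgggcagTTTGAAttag
NUF2 promoter (GRCh38.p14, chr1:163321704-163322003, plus strand): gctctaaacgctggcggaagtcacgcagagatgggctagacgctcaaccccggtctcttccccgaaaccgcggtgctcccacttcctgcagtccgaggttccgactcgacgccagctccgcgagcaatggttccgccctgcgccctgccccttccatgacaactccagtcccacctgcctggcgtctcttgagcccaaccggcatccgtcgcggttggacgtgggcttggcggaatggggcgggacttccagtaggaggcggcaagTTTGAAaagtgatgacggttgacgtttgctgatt
CENPN promoter (GRCh38.p14, chr16:81006964-81007263, plus strand): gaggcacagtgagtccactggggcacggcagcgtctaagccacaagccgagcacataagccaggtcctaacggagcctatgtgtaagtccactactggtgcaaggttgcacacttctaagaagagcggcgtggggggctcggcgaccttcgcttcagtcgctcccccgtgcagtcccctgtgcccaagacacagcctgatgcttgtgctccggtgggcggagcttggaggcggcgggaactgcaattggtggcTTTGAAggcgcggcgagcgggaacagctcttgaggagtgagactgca
KIF15 promoter (GRCh38.p14, chr3:44761544-44761843, plus strand): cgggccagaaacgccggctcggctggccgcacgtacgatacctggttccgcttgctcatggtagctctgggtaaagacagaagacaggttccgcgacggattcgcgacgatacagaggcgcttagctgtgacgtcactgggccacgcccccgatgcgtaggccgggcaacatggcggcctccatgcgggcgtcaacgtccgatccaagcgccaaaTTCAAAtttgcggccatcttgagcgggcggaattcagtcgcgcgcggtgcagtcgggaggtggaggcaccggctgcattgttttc
MAD2L1 promoter (GRCh38.p14, chr4:120066799-120067098, minus strand): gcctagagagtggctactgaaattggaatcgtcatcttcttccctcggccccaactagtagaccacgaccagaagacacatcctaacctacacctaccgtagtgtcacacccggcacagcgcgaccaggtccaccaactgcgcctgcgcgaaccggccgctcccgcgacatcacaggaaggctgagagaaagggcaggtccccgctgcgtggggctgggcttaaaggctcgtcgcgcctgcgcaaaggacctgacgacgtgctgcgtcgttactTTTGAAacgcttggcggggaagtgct

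Of the 7 genes for CDK1, its cyclins and CDC25 phosphatases, 3 were lower, none was higher and 4 were not called, with a median of -0.81. That is 42.9% lower, against 8.37% of all genes. CDC25A, a phosphatase that activates CDKs on entry into S phase and mitosis, read 7.17, 7.44, 7.29 and 7.50 on OVCAR-8R arrays 1 to 4 and 10.08, 10.01, 10.03 and 10.01 on OVCAR-8 arrays 1 to 4 (log2 signal throughout). It fell by 2.68 (0.08, adjusted p = 7.5e-09), a 6.41-fold difference with the lines far apart. Here and below the value in brackets after a difference is its standard error from limma over 4 arrays a line, and the adjusted p is that of limma. CDK1 itself read 9.34, 9.68, 9.45 and 9.87 in OVCAR-8R and 10.59, 10.72, 10.47 and 10.89 in OVCAR-8, and fell by 1.08 (0.13, adjusted p = 7.46e-05). CDC25C, the mitotic phosphatase, fell by 1.05 (0.09), from 8.33 to 8.72 in OVCAR-8 to between 7.39 and 7.56 in OVCAR-8R. Both of these calls are near the threshold: without OVCAR-8R array 1 CDK1 differed by -0.9996 and under cyclic loess by -0.97, and without OVCAR-8 array 2 CDC25C differed by -0.99, each just under 2-fold.

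The cyclin genes had smaller differences than CDC25A, which were not tested against it. CCNA2, cyclin A2, read 10.37, 10.44, 10.42 and 10.53 in OVCAR-8R and 11.08, 11.34, 11.23 and 11.36 in OVCAR-8, a difference of -0.81 (0.08) that separated the lines but was under 2-fold. CCNB2 had a difference of -0.50 (0.09). CCNB1, the main cyclin B of mitotic entry, read 9.91, 9.96, 10.07 and 9.99 in OVCAR-8R and 9.98, 9.94, 10.02 and 9.96 in OVCAR-8, so the lines overlapped (difference 0.01, 95% interval -0.14 to 0.16). CDC25B went the other way with a difference of 0.74 (0.11, adjusted p = 0.000241), again under 2-fold. The 3 phosphatase genes thus had log2 differences of -2.68, -1.05 and 0.74 for A, C and B.

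None of the 8 genes for mitotic kinases, exit and midzone was called by limma, since none differed 2-fold whatever its p. The methods' t-test has the same minimum, so it could call none either. The median was -0.22 and the range -0.56 to 0.40. At any size 4 were lower (50%) and 2 higher, against 30.0% lower and 27.6% higher of all genes. MKI67, the proliferation antigen Ki-67, read 9.35, 9.61, 9.44 and 9.54 in OVCAR-8R and 9.52, 9.59, 9.81 and 9.88 in OVCAR-8, which overlapped (difference -0.22, 95% interval -0.44 to 0.01, adjusted p = 0.103). PLK1, the polo kinase, had a difference of -0.22 (0.08), AURKB, the kinase of the chromosomal passenger complex, one of -0.31 (0.07) and its partner BIRC5 (survivin) one of -0.22 (0.07), with -0.24 at the further BIRC5 probeset. For AURKA, the spindle pole kinase, the 95% interval was -0.34 to 0.06. TPX2, which activates AURKA, read 10.80, 10.86, 10.75 and 10.93 in OVCAR-8R and 10.35, 10.30, 10.55 and 10.54 in OVCAR-8, all higher in OVCAR-8R, with a difference of 0.40 (0.08, adjusted p = 0.00255). CDC20, the activator of the anaphase-promoting complex, had a difference of 0.34 (0.07). PRC1, which bundles midzone microtubules, had the most negative difference of the group, -0.56 (0.07).

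Of 5 spindle checkpoint genes, MAD2L1 was lower and 4 were not called, with a median of -0.41. The share lower was 20%, and 80% at any size, against 8.37% and 30.0% of all genes. MAD2L1, whose product binds and blocks CDC20, read 9.55, 9.46, 9.65 and 9.59 in OVCAR-8R and 10.83, 11.01, 10.85 and 10.81 in OVCAR-8. It fell by 1.31 (0.08, adjusted p = 4.72e-07), and no arrays of the lines overlapped. BUB1B (BubR1) had a difference of -0.86 (0.07), BUB3 one of -0.41 (0.06) and TTK, the MPS1 kinase, one of -0.35 (0.09), all with the lines separated. BUB1, the kinase of the same pathway, read 10.53, 10.58, 10.53 and 10.60 in OVCAR-8R and 10.61, 10.60, 10.66 and 10.55 in OVCAR-8, a difference of -0.05 with an interval of -0.19 to 0.10. Of the 5 checkpoint genes, 4 were thus lower at any size, and BUB1 was not.

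In the NDC80 complex, a rod of 4 proteins, 2 genes were lower (50%, against 8.37% of all genes) and 2 were not called. NUF2 read 8.16, 8.52, 8.26 and 8.51 in OVCAR-8R and 9.79, 10.05, 9.75 and 10.01 in OVCAR-8, and fell by 1.54 (0.11, adjusted p = 1.79e-06), a 2.90-fold difference. SPC25 read 7.00, 7.36, 7.21 and 7.46 in OVCAR-8R and 8.53, 8.07, 8.41 and 8.84 in OVCAR-8, and fell by 1.21 (0.16). NDC80, which pairs with NUF2 at the microtubule end, had a difference of -0.74 (0.11), under 2-fold, with the lines separated. SPC24, the direct partner of SPC25, read 7.82, 7.92, 7.80 and 8.04 in OVCAR-8R and 7.90, 7.54, 7.91 and 7.77 in OVCAR-8, which overlapped (difference 0.12, 95% interval -0.11 to 0.34). Subunits of this 1 complex therefore had differences from -1.54 to 0.12.

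Among 15 inner centromere genes, 5 were lower, none was higher and 10 were not called, with a median of -0.80. That is 33.3% lower, against 8.37% of all genes. CENPW, a histone-fold protein that pairs with CENPT, read 6.99, 7.22, 7.18 and 7.12 in OVCAR-8R and 8.83, 8.78, 8.76 and 9.04 in OVCAR-8, and fell by 1.72 (0.09, adjusted p = 1.72e-07). CENPN, which recognises the centromeric nucleosome, read 9.42, 9.60, 9.39 and 9.62 in OVCAR-8R and 10.89, 10.91, 10.73 and 10.93 in OVCAR-8, and fell by 1.36 (0.08). Neither gene had arrays of the lines within 1 log2 unit of each other. CENPQ and CENPP, of the CENP-O complex, fell by 1.29 (0.11) and 1.09 (0.11), and CENPH by 1.05 (0.12). CENPH differed by -0.96 without OVCAR-8R array 1 and by -0.98 without OVCAR-8 array 4, under 2-fold in each.

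A further 6 inner centromere genes were lower at any size without reaching 2-fold. CENPU of the CENP-O complex had a difference of -0.91 (0.12), and CENPI and CENPK, which bind CENPH, had differences of -0.83 (0.09) and -0.80 (0.10). CENPC, the scaffold of the network, had one of -0.60 (0.09), CENPL, the partner of CENPN, one of -0.47 (0.08) and CENPM one of -0.40 (0.11). CENPO and CENPX, at -0.28 and -0.18, had arrays of the lines that overlapped. CENPT and CENPB, which binds a motif in satellite DNA, stood on the other side with 0.40 (0.06) and 0.65 (0.09), every OVCAR-8R array above every OVCAR-8 array. CENPT and CENPW, which form a dimer, thus had differences of 0.40 and -1.72.

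The 3 other CENP genes, none of them a subunit of the constitutive network, were all lower (100%, against 8.37% of all genes). CENPV, a protein linked to chromosome alignment and cytokinesis, read 7.15, 7.07, 7.09 and 7.12 in OVCAR-8R and 10.06, 10.08, 9.92 and 9.81 in OVCAR-8. It fell by 2.86 (0.08, adjusted p = 3.17e-09), a 7.26-fold difference and the most negative of the 84. CENPF, a large coiled-coil protein of the outer kinetochore, read 8.85, 9.08, 9.16 and 9.08 in OVCAR-8R and 10.70, 10.64, 10.67 and 10.71 in OVCAR-8, and fell by 1.64 (0.08). CENPE, a kinesin motor that carries chromosomes to the spindle equator, read 8.68, 9.14, 8.80 and 9.27 in OVCAR-8R and 9.88, 10.13, 9.94 and 10.14 in OVCAR-8, and fell by 1.05 (0.14). Its call ended under array weights (-0.98), cyclic loess (-0.96) and without OVCAR-8R array 1 (-0.95) or 3 (-0.99), so CENPE stands at the threshold.

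**Figure D2:**
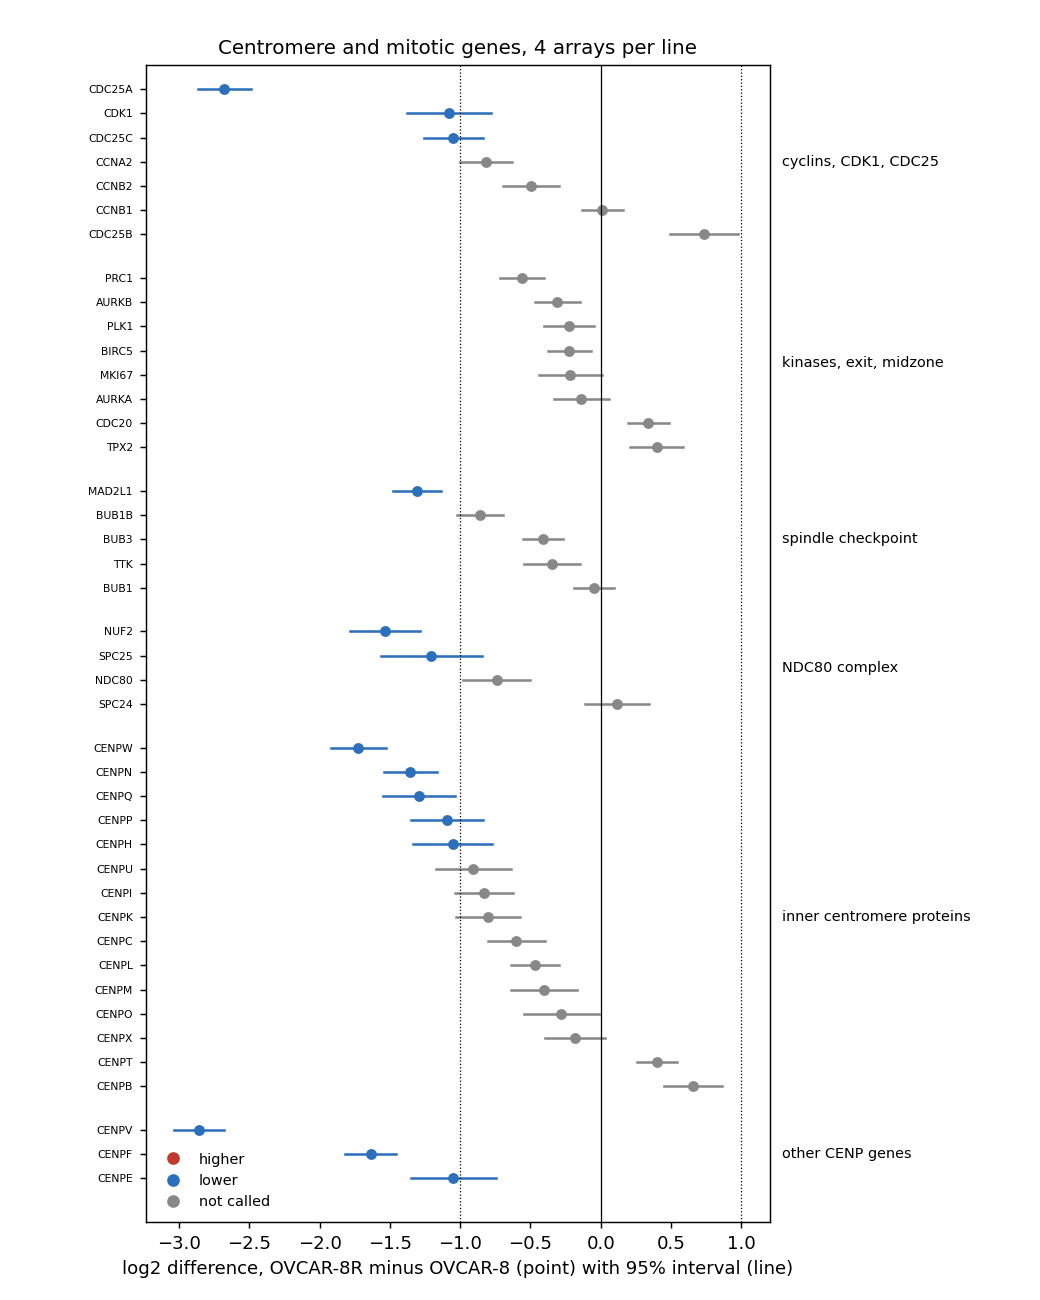
Log2 difference (OVCAR-8R minus OVCAR-8, x axis) of each centromere and mitotic gene with its 95% interval from limma, 4 arrays per line, by role, with dotted lines at 2-fold. Blue marks genes that were lower and grey those not called; CENPV at -2.86 and CDC25A at -2.68 stand apart, and no gene is at or above 1.

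Of 14 mitotic kinesins, KIF15 was lower, none was higher and 13 were not called, although 10 were lower at any size, with a median of -0.35. The share lower was thus 7.14%, near the 8.37% of all genes, and at any size 71.4%, against 30.0%. KIF15, which slides spindle microtubules alongside KIF11, read 7.97, 8.43, 8.23 and 8.60 in OVCAR-8R and 9.53, 9.76, 9.44 and 9.76 in OVCAR-8. It fell by 1.32 (0.14, adjusted p = 2.64e-05), and the OVCAR-8R arrays spread more widely (SD 0.27) than the OVCAR-8 arrays (SD 0.16). KIF11 (Eg5), the main motor that separates spindle poles, had a difference of -0.45 (0.08), and the chromosome-arm motors KIF4A and KIF22 had differences of -0.73 (0.08) and -0.60 (0.06), with -0.58 at the further KIF22 probeset. KIF20B had one of -0.66 (0.11) and the microtubule depolymerase KIF2C (MCAK) one of -0.51 (0.07). KIF14, KIF23 and KIF20A, motors that act in cytokinesis, had differences of -0.39 (0.10), -0.31 (0.07) and -0.23 (0.08).

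KIFC1, a motor that walks to the minus end and clusters centrosomes, was the 1 mitotic kinesin on the higher side. It read 9.59, 9.50, 9.69 and 9.54 in OVCAR-8R and 8.78, 8.68, 8.59 and 8.86 in OVCAR-8, with a difference of 0.85 (0.08, adjusted p = 1.33e-05) and one of 0.77 at its further probeset, both under 2-fold. KIF2A and KIF2B, related to KIF2C, had intervals of -0.26 to 0.17 and -0.34 to 0.20, and KIF18A one of -0.46 to 0.03. The KIF18B arrays of the lines overlapped at a difference of -0.29 (0.10), with -0.30 at its further probeset.

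Of 28 transport and other kinesins, 3 were lower, 3 were higher and 22 were not called, with a median of 0.08. That is 10.7% each way, near the 8.37% each way over all genes. At any size 9 were lower (32.1%) and 9 higher, against 30.0% lower and 27.6% higher of all genes. The members of the kinesin-1 family, which carry cargo along axons and through the cytoplasm, did not move together. KIF5C, a heavy chain rich in neurons, read 7.67, 7.76, 7.47 and 7.82 in OVCAR-8R and 8.91, 8.70, 8.99 and 8.95 in OVCAR-8, and fell by 1.21 (0.10, adjusted p = 4.28e-06). KIF5A, also rich in neurons, read 6.09, 6.07, 5.66 and 6.23 in OVCAR-8R and 7.07, 7.04, 7.22 and 6.77 in OVCAR-8, and fell by 1.01 (0.14), with a fall of 1.20 (0.08) at its further probeset. Without OVCAR-8R array 3 the KIF5A difference was -0.89, and without OVCAR-8 array 1 or 3 it was -0.99 or -0.95. KIF5B, the heavy chain found in all tissues, read 11.89, 11.92, 11.86 and 11.98 in OVCAR-8R and 11.67, 11.74, 11.79 and 11.65 in OVCAR-8, with a difference of 0.20 (0.07).

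The kinesin-2 and kinesin-3 families also held genes on both sides. KIF3A, a motor subunit needed for cilia, had a difference of -0.72 (0.12), its partner KIF3B one of 0.36 (0.07), and KIF3C, an alternative partner, rose by 1.31 (0.08, adjusted p = 4.59e-07). KIF3C read 8.73, 8.83, 8.77 and 8.76 in OVCAR-8R and 7.31, 7.47, 7.49 and 7.59 in OVCAR-8, with the lines more than 1 log2 unit apart. KIF1A, which carries synaptic vesicle precursors, read 6.17, 5.85, 5.80 and 5.77 in OVCAR-8R and 7.36, 6.92, 7.37 and 7.36 in OVCAR-8. It fell by 1.35 (0.13, adjusted p = 1.25e-05), whereas KIF1B and KIF1C had differences of 0.53 (0.09) and 0.77 (0.07). KIF13A, a motor of endosome recycling, read 8.47, 8.72, 8.56 and 8.64 in OVCAR-8R and 7.53, 7.45, 7.49 and 7.64 in OVCAR-8, and rose by 1.07 (0.08), with KIF13B at 0.43 (0.07) and KIF16B, an early endosome motor, at -0.55 (0.10).

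KIFC3, a motor that walks to the minus end and acts at cell junctions, had the most positive difference of the 84. It read 8.70, 8.55, 8.56 and 8.51 in OVCAR-8R and 7.18, 7.24, 7.38 and 7.19 in OVCAR-8, and rose by 1.33 (0.08, adjusted p = 4.22e-07), a 2.52-fold difference. KIFC2 had a difference of 0.89 (0.09), under 2-fold, so that KIFC1, KIFC2 and KIFC3 were all higher at any size. KIF27 had a difference of -0.67 (0.14), KIF24 one of -0.39 (0.08) and KIF7, of Hedgehog signalling, one of -0.27 (0.07). KIF6 had a difference of -0.23 (0.08), and KIF25 one of -0.10 (0.06, adjusted p = 0.203) although its arrays did not overlap. KIF25-AS1 had a difference of 0.10, with an interval of -0.16 to 0.36. Genes near 0 (KIF17, KIF21B, KIF26A, KIF26B, KIF12, KIF9, KIF19 and KIF21A) had differences from -0.12 to 0.15 and overlapping arrays. For KIF25-AS1, KIF21B, KIF26B, KIF12, KIF9 and KIF19 the mean signals lay below the array medians in both lines. There, little expression and no difference cannot be told apart.

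**Figure D3:**
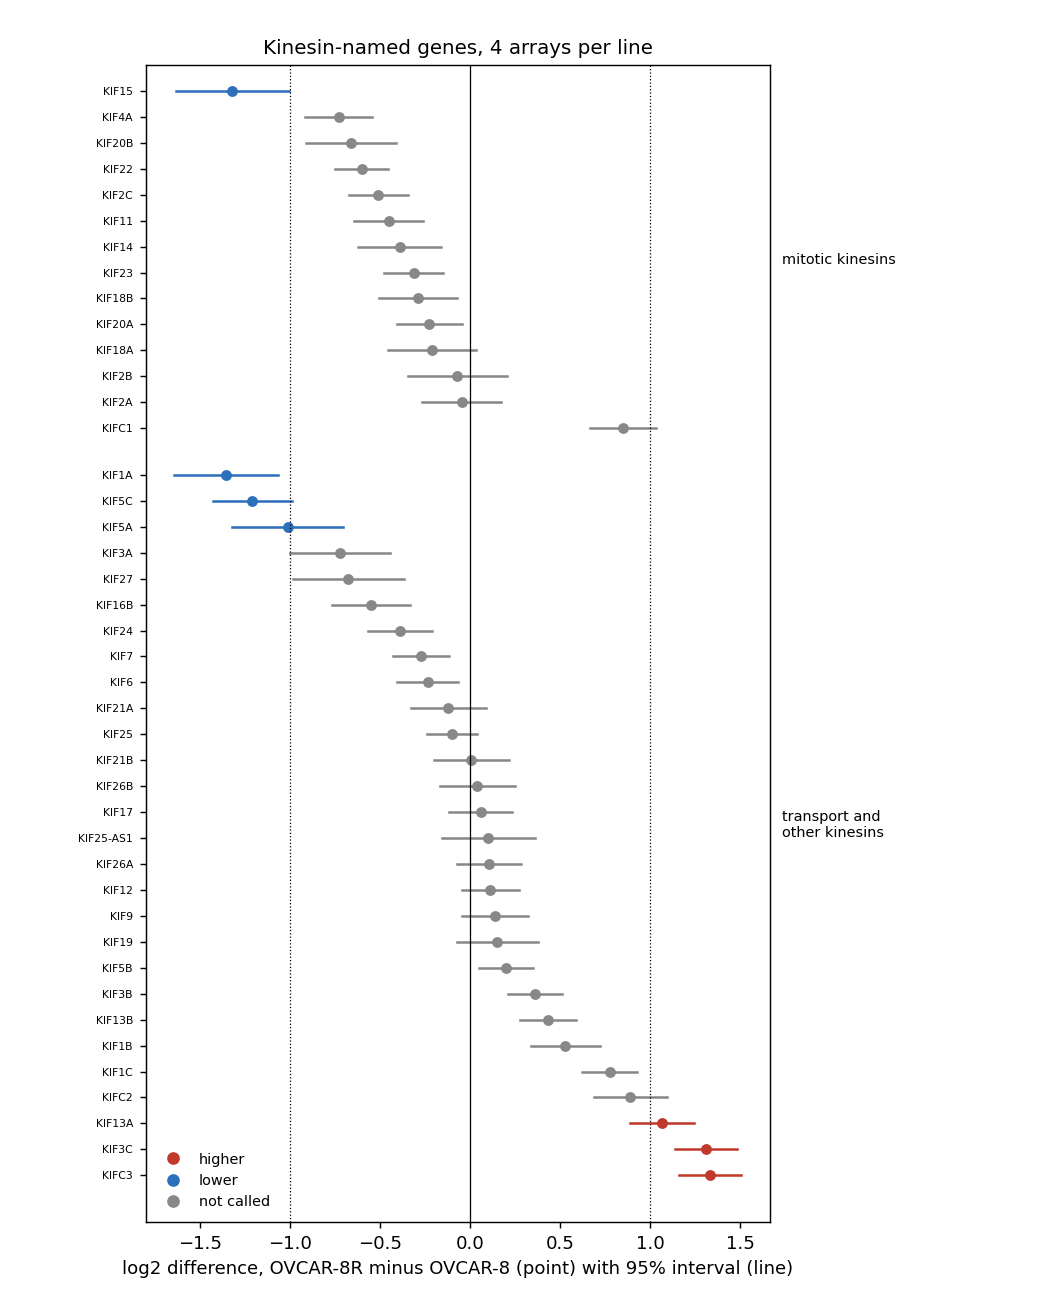
Log2 difference (OVCAR-8R minus OVCAR-8, x axis) of each kinesin-named gene with its 95% interval from limma, 4 arrays per line, with dotted lines at 2-fold. Of the mitotic kinesins KIF15 lies beyond -1 and KIFC1 is at 0.85, while the other kinesins spread from KIF1A at -1.35 to KIFC3 at 1.33.

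**Figure D4:**
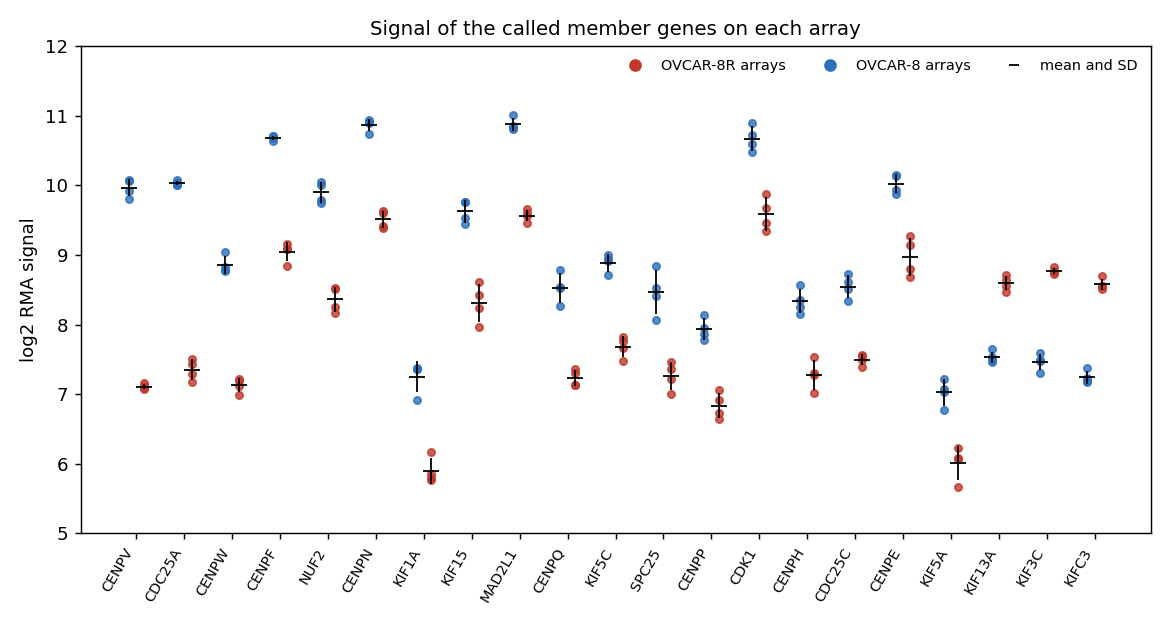
Log2 RMA signal of the 21 called members on each OVCAR-8R array (red) and OVCAR-8 array (blue), with mean and SD in black, ordered from the most negative difference. The lines do not overlap in any of the 21, which were chosen by their difference on these same arrays, so this is no further evidence. KIF13A, KIF3C and KIFC3 at the right are those higher in OVCAR-8R.

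Within the resistant line the mitotic genes varied together from array to array. The mean deviation of the 42 centromere and mitotic genes from the OVCAR-8R mean was -0.09 on array 1, 0.04 on array 2, -0.03 on array 3 and 0.08 on array 4, and 9, 30, 14 and 36 of the 42 genes lay above that mean. On OVCAR-8 arrays 1 to 4 it was -0.01, -0.03, -0.03 and 0.07, with 21, 17, 18 and 30 genes above. All 4 NDC80 complex genes lay below the OVCAR-8R mean on arrays 1 and 3 and above it on arrays 2 and 4. The 28 transport and other kinesins deviated by 0.04, -0.01, -0.03 and -0.004 on the same OVCAR-8R arrays. All genes measured deviated by at most 0.01 on any array. RMA equalizes the signal distribution of the arrays, so that value is near 0 by construction and is no contrast to the mitotic genes. Over all probesets kept, OVCAR-8R arrays 1 and 3 also deviated together (r = 0.427), as did arrays 2 and 4 (r = 0.484). The median difference of these genes between the lines was -0.58. The part of this variation in the result was not tested.

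**Figure D5:**
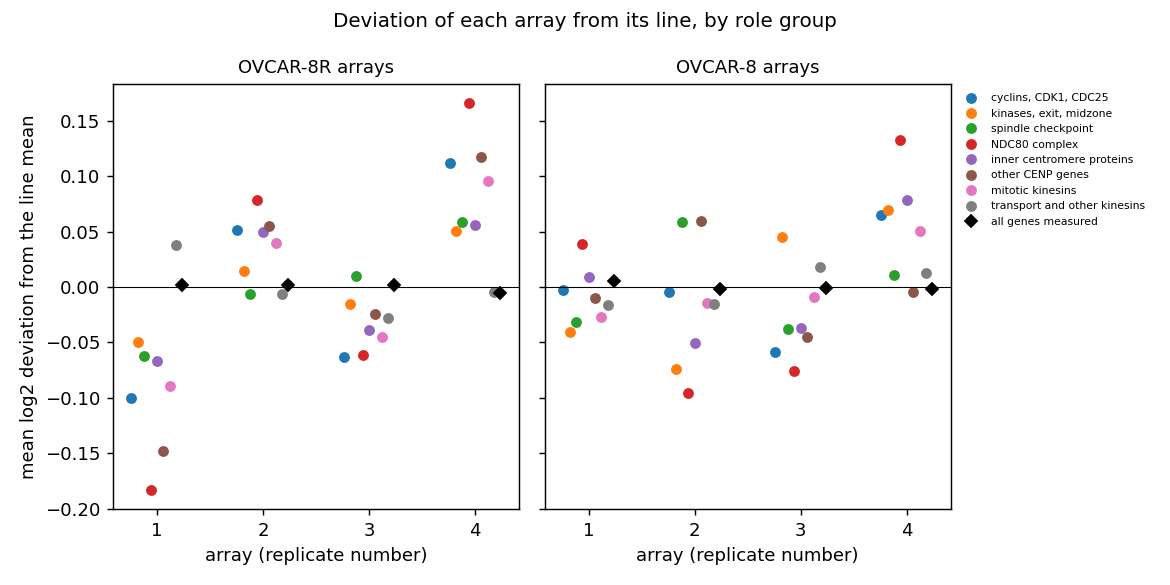
Mean log2 deviation (y axis) of the genes of each role group from the mean of their line on each array (x axis), OVCAR-8R at left and OVCAR-8 at right, with all genes measured as black diamonds. On OVCAR-8R arrays 1 and 4 the NDC80 complex genes sit at -0.18 and 0.17. All genes stay within 0.01 of 0 by construction, since RMA equalizes the arrays.

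Other genes of the same pathways were lower in part. Of 20 measured genes for the outer kinetochore and centromere loading, 5 were lower and none higher, with a median of -0.80, led by NSL1 of the MIS12 complex (difference -1.72), ITGB3BP, which encodes CENP-R (-1.48), and SKA3 of the SKA complex (-1.38). Of 17 cohesin and separase genes, 5 were lower, led by the cohesin subunits STAG2 and SMC1A (fell by 1.68 and 1.34) and the acetyltransferase gene ESCO1 (fell by 1.43), and of 8 condensin genes 3 were lower, NCAPD3, NCAPG and SMC4 (fell by 1.20, 1.19 and 1.11). Medians of these lists were -0.35 and -0.58. Of 18 genes of the anaphase-promoting complex and its partners, the inhibitor FBXO5 (EMI1) fell by 1.44 and the subunit gene CDC23 by 1.01, while the subunit gene CDC16 rose by 1.39 (0.09), with a median of -0.13. That is 11.1% lower and 5.56% higher, near the 8.37% each way over all genes. The shares lower in the outer kinetochore, cohesin and condensin lists were 25%, 29.4% and 37.5%.

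Among 17 spindle and cytokinesis genes, NEK2, BORA and NUSAP1 fell by 1.62, 1.41 and 1.16, the kinase gene CIT rose by 1.03 (0.08), and the median was -0.20. BORA is an activator of AURKA, and NEK2 a centrosome kinase. Of 16 genes of mitotic entry control, 3 were lower, the MuvB complex genes LIN9 and LIN52 (fell by 1.46 and 1.15) and MASTL, the Greatwall kinase (fell by 1.29), with a median of -0.59. For comparison, 7 of 43 DNA replication genes were lower and none higher, with a median of -0.45, led by MCM10, RFC3 and ORC5 (fell by 2.10, 1.96 and 1.92). At any size 67.4% of the replication genes were lower, against 71.4% of the centromere and mitotic genes and 30.0% of all genes. Of 17 kinesin light chain and dynein genes none was lower, the dynein subunit gene DYNC1LI2 rose by 1.27 (0.09), and the median was 0.15. The share higher was 5.88%, near the 8.37% of all genes. At any size 8 of these genes were higher and 5 lower (29.4%), against 27.6% higher and 30.0% lower of all genes. By the 2-fold rule, 17.6% of the spindle, 18.8% of the mitotic entry and 16.3% of the replication genes were lower, against 8.37% of all genes. Differences between these lists and the members were not tested.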

How the data were processed

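The authors hybridized RNA from spheroids of both lines to 8 Affymetrix Human Gene ST arrays, 4 per line. Their values come from RMA as run by Affymetrix Expression Console. RMA equalizes the distribution of signal over arrays, so that an overall shift between lines is removed and every difference is relative to the other genes. The deposited values are linear intensity, 1 per probeset and array, for 33297 probesets, and log2 was taken here. Of these probesets 19460 are named by 1 gene, 1754 by several and 12083 are unnamed here, and 19429 of the 19460 matched RefSeq by gene identifier. As in the methods, probesets in the lowest 25% of mean signal in both lines (under 5.11 in OVCAR-8R and 5.16 in OVCAR-8 on the log2 scale) were left out, which kept 25628. Of the 15931 genes measured, 647 had more than 1 probeset, of which that with the highest mean was used. Groups come from the sample titles. These call the arrays biological replicates but do not say whether cultures or spheroids were separate, and the p-values then measure only the spread between arrays, which may be technical. The lines were compared by limma 3.58.1 in R 4.3.3 (lmFit, eBayes, Benjamini-Hochberg over the 25628 probesets). Arrays give no depth, and their number limits the precision.

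The members, lists, role groups and motifs were chosen with earlier results of these data known. Every member could be named, and from each other list the up to 3 called genes of largest difference each way. The procedure was tested on simulated data. The 12 alternatives in settings were no filter or a 40% filter on signal, an adjusted p under 0.01, no minimum size, treat at 1.5-fold, the methods' t-test, an intensity trend, array weights, median centring, cyclic loess, averaging the probesets of a gene and a replicate block. Each array was also left out in turn.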

Additional observations from a re-analysis of the deposited data

Results flagged for a closer look

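In 3 of 168 groups of 4 arrays (84 genes in 2 lines), 1 array lay far from the other 3 by Dixon's test at the 95% level, which by chance flags about 1 group in 20. KIF18B read 8.31 on OVCAR-8 array 2, against 8.58 to 8.59 on the other OVCAR-8 arrays. NDC80 read 9.22 on OVCAR-8 array 3, against 9.52 to 9.56 on the others, and stayed above every OVCAR-8R array there. KIF1A read 6.92 on OVCAR-8 array 2, against 7.36 to 7.37 on the others, and this array too lay above every OVCAR-8R array.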

How the results depend on the processing

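No called member changed sign under the 12 alternative settings or with any 1 of the 8 arrays left out, and 16 of the 21 calls held under all of them. Of the 12, only array weights, median centring, cyclic loess and averaging of probesets can alter a difference. The others change the filter, test or threshold and could not change a sign, and dropping the minimum size could not remove a call. Array weights and leaving out 1 array could not change a sign either, since the lines did not overlap in any called member. Median centring moves the arrays by far less than 2-fold, so it could not reverse a call. The 5 calls that did not hold throughout (CDK1, CDC25C, CENPH, CENPE and KIF5A) were under 2-fold in some runs, between -0.89 and -0.99958, with adjusted p from 2.72e-05 to 0.000772. With 1 array left out, 3 members were higher each time and 15 to 18 lower, with 2 to 3 lower cyclin, CDK1 and CDC25 genes, 4 to 5 lower inner centromere genes, 2 to 3 other CENP genes and 2 to 3 transport kinesins. The lowest count, 15, came without OVCAR-8R array 1, where CDK1, CENPH and CENPE were under 2-fold. Cyclic loess lost CDK1 and CENPE and array weights lost CENPE. Counts moved most with the minimum size. With none, 15 members were higher and 49 lower: 1 and 5 among cyclins, CDK1 and CDC25, 2 and 11 in the inner centromere, 2 and 4 among kinases, exit and midzone, 1 and 10 among mitotic kinesins, 0 and 4 in the checkpoint, 0 and 3 each in the NDC80 complex and the other CENP genes, and 9 and 9 among transport kinesins. With treat at 1.5-fold, 5 members were higher, with KIFC1 (1 mitotic kinesin) and KIFC2 added, and 2 checkpoint genes were lower, with BUB1B added. The filter that left out the lowest 40% of signal dropped 3 members that were not called. Of the 63 members not called, 6 changed sign under some alternative.

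Deviations of same-numbered arrays of the lines correlated at r = 0.165, -0.323, -0.052 and 0.443 for numbers 1 to 4, positive for 2 of the 4 numbers only, and the arrays were not taken as pairs. With a replicate block, 3 members were higher and 18 lower, with the same call for all 84, and 3 of 4 OVCAR-8R arrays correlated best with another number. Array signals near the floor limit low genes. No member lay in the lowest quartile in both lines, but some lay below the array medians of 6.67 to 6.73 in both. Mean log2 signals in OVCAR-8R and OVCAR-8 were 5.67 and 5.90 for KIF6, 5.95 and 6.05 for KIF25, and 6.14 and 6.21 for KIF2B. The called genes KIF1A and KIF5A had means of 5.90 and 6.01 in OVCAR-8R only.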
